A study of Mus musculus with 24 samples.

Results

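The 10 genes described here, Vegfa, Slc2a1, Ldha, Pgk1, Hk2, Bnip3, Adm, Egln3, Ndrg1 and Ankrd37, are genes of glycolysis and of the response to low oxygen, and were taken by name from the 51138 genes of the count table. All 10 were measured in each of 24 samples and passed the filter on low counts. Bulk RNA was sequenced from whole constructs removed after 2 weeks from pockets under the skin of the back, with 4 animals in each of 6 groups. Every construct was built on 40 mg of biphasic calcium phosphate (BCP), granules of a ceramic used to replace bone, and every host was a Foxp3-DTR/eGFP mouse of 8 to 9 weeks, of either sex. This strain carries the diphtheria toxin receptor and a green fluorescent protein under the control of Foxp3, the transcription factor that marks regulatory T cells (Treg). The granules were implanted bare (BCP) or with 800000 bone marrow mesenchymal stromal cells (MSC) from C57BL/6J mice (BCP+MSC). In BCP+MSC+Treg the MSC had been cocultured with activated Treg sorted from the receptor strain, and in BCP+MSC+RvE1 they had been primed in culture with resolvin E1 (RvE1), a lipid that helps to end inflammation, at 10 nM. In the remaining groups BCP+MSC constructs were placed in mice that then received diphtheria toxin at 50 µg/kg into the abdomen, either alone ((dep)BCP+MSC) or with daily local injections of 50 µL of 1 µM RvE1 ((dep)BCP+MSC+RvE1inj). The toxin groups came from a separate experiment of the study, whose methods describe no vehicle injections for the other groups, so that toxin, loss of Treg and experiment cannot be told apart in the comparisons with BCP+MSC. Mice within a group were different animals, and each construct mixed the seeded cells with the host cells that had grown in.

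Cells sense oxygen through the hypoxia-inducible factors (HIF). When oxygen is plentiful, prolyl hydroxylases of the Egln family mark the HIF alpha subunits for destruction through the Vhl ubiquitin ligase. When oxygen is scarce the alpha subunit survives, joins Arnt and binds short motifs near its target genes, which raise glucose uptake, glycolysis and the growth of vessels and lower the use of mitochondria. In implanted scaffolds the centre is far from vessels during the first weeks, and these genes are commonly read as markers of low oxygen there, although glucocorticoids, fasting and growth signals also act on several of them.

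Total counts per sample ran from 8482701 to 144417743, and the lowest count of any of the 10 genes in any sample was 50, for Ankrd37, so counting error was small beside the spread between animals. A level of 3 counts corresponded to 0.0208 to 0.354 CPM, the count scaled to a fixed library total, and the lowest level among the 10 genes was 2.92 CPM. Foxp3 itself was at 0.933 CPM ± 0.240 in BCP+MSC and 0.985 CPM ± 0.542 in (dep)BCP+MSC (SD, n = 4), with overlapping values. It was no higher in BCP+MSC+Treg, at 0.746 CPM ± 0.515, so this RNA cannot decide whether Treg were lost from the constructs. The paper reports that flow cytometry of lymph nodes and spleen showed the depletion. Skeletal muscle markers varied widely, and their summed level ran from 385 CPM in BCP+MSC replicate 2 to 44719.9 CPM in a BCP+MSC+RvE1 sample. MSC genes cannot be told from host genes, and in such bulk samples fewer cells of a type and less RNA per cell cannot be told apart.

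Per length of transcript the enzymes Ldha and Pgk1 led. In BCP+MSC, Ldha stood at 473 CPM per kb ± 130 and Pgk1 at 196 CPM per kb ± 35.9, followed by Slc2a1 at 56.7 ± 15.7 (SD, n = 4). Bnip3 at 35.7 CPM per kb ± 11.6 and Vegfa at 31.7 ± 5.59 did not differ beyond their spread. The next levels were those of Ndrg1 at 22.5 CPM per kb, Egln3 at 20.3, Hk2 at 19.6, Adm at 15.6 and Ankrd37 at 15.2, which overlapped each other. Over the 24 samples the level of Hk2 varied least, by 1.98-fold between the lowest and the highest sample, whereas Ankrd37 varied 16.6-fold and Bnip3 16.0-fold.

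The promoters of the genes were read for the core motif to which HIF binds, ACGTG or GCGTG, on both strands. RefSeq windows (GRCm38.p6) of 250 bases before to 50 bases after the start of transcription were used for the genes other than Ndrg1, 9 in all. Of their 11 windows 10 held at least 1 motif, whereas 43.77% of all 32851 promoter windows held at least 1 and 20.64% held 2 or more. Counted by gene rather than by window, all 9 held at least 1 motif and 8 held at least 2, Vegfa only in its second window. CACGTG, which holds an ACGTG on each strand, was present in 7.15% of all windows. A match is a run of letters and not evidence of binding. The windows below are those of Bnip3, which differed most between groups, of Adm and Egln3, which varied together between animals, and of the glycolytic enzyme Pgk1. Capitals mark the motifs, and a motif on the other strand reads CACGT or CACGC.
Bnip3, chr7:138909457-138909756, minus strand: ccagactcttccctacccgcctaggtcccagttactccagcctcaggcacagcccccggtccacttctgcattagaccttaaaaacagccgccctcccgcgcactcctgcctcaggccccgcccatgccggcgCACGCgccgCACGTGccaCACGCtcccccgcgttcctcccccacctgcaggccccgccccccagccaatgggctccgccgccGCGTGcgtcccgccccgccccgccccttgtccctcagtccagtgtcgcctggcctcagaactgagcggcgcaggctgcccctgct
Egln3, chr12:54203825-54204124, minus strand: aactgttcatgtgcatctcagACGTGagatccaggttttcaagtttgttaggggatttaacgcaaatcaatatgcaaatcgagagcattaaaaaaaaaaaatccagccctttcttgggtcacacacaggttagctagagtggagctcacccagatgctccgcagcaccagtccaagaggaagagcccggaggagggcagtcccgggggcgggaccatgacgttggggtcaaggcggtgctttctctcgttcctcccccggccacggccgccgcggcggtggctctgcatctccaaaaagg
Adm, chr7:110627407-110627706, plus strand: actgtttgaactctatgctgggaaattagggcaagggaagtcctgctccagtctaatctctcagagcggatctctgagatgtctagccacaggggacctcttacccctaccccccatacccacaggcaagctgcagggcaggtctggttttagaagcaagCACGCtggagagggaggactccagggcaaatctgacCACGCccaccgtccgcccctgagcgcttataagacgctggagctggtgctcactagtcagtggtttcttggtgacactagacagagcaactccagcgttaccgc
Pgk1, chrX:106186850-106187149, plus strand: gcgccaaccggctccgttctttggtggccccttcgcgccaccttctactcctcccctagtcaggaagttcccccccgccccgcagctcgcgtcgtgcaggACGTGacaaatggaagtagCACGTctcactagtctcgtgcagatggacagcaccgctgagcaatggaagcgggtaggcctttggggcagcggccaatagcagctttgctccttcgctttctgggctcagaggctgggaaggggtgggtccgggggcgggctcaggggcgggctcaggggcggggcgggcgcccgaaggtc
The Bnip3 window held 5 motifs, at -117, -108, -107, -99 and -35 from the start, and 2 of these formed 1 CACGTG. Egln3 had 1 motif, at -229, Adm had 2, at -90 and -54, and Pgk1 had 2, at -150 and -131. Distances are those of the first base of the motif. One of the 2 Ldha windows held 7 motifs, the most among the 11 windows of these genes, since Vegfa and Ldha have a pair each.

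**Figure D1:**
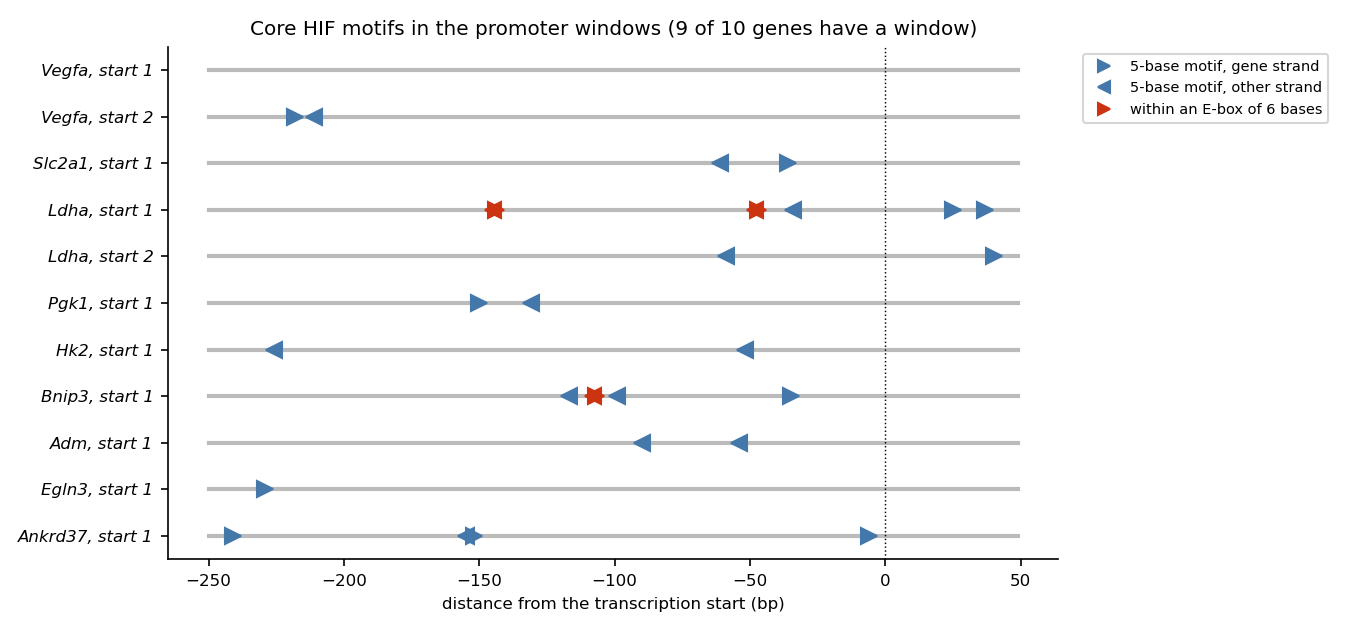
Core HIF motifs (triangles, pointing along the strand that carries them) in the promoter windows of 9 genes, plotted by distance from the transcription start in base pairs. Ldha has 7 motifs in its first window and Bnip3 has 5, red triangles mark motifs within CACGTG, and the first window of Vegfa has none.

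The first question was whether seeded cells, and how they were primed, altered these genes. Against granules alone, no gene of the 10 passed the adjusted threshold in any of the 3 groups with MSC and without toxin. Both genes under an unadjusted p of 0.05 are targets of HIF: Bnip3, an outer mitochondrial membrane protein that promotes the removal of mitochondria, and Ankrd37, an ankyrin-repeat protein. Ankrd37 lies at chr8:45996902-46005707 and shares ground with Ufsp2 and Lrp2bp on the opposite strand. Ufsp2 reaches only the lower end of this range, to 45996958, while Lrp2bp spans 45999303 to 46029477. They held 72590 and 2408 counts over the 24 samples beside 27904 for Ankrd37. Without strand in the counting, reads from the shared stretches cannot be fully told apart. Ankrd37 was at 2.92, 11.2, 11.0 and 7.55 CPM in the 4 BCP samples and at 21.5, 11.5, 48.3 and 12.0 CPM in BCP+MSC. It was at 9.65, 28.8, 11.3 and 27.2 CPM in BCP+MSC+RvE1 and at 10.8, 46.6, 12.0 and 13.5 CPM in BCP+MSC+Treg. The 4 BCP+MSC values lay above all BCP values, the lowest by a narrow margin, while the other two groups overlapped with BCP.

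The log2 fold change of Ankrd37 over BCP was 1.50 ± 0.56 in BCP+MSC (SE), 1.34 ± 0.56 in BCP+MSC+Treg and 1.22 ± 0.55 in BCP+MSC+RvE1, with adjusted p of 0.888, 0.614 and 0.307 in edgeR's quasi-likelihood test. Bnip3 was at 32.8, 70.2, 52.0 and 56.0 CPM in BCP, at 49.9, 76.4, 83.6 and 114 CPM in BCP+MSC, at 94.3, 59.9, 85.7 and 105 CPM in BCP+MSC+RvE1 and at 104, 142, 78.9 and 96.6 CPM in BCP+MSC+Treg. Only the BCP+MSC+Treg samples all lay above the BCP samples. The log2 fold changes were 0.62 ± 0.28, 0.71 ± 0.28 and 1.00 ± 0.28 in the same order, with adjusted p of 0.888, 0.300 and 0.614. The 3 comparisons share the BCP samples, of which replicate 1 had the lowest value of the 4 for all 10 genes, so they are not independent of each other.

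At an unadjusted p under 0.05, 2 of the 10 genes, Bnip3 and Ankrd37, passed in BCP+MSC against BCP, where 5.06% of all genes passed. The same 2 passed in BCP+MSC+Treg, beside 7.60% of all genes, and in BCP+MSC+RvE1, beside 15.6% of all genes. The groups did not overlap for 1 gene in BCP+MSC (Ankrd37, 1.81% of all genes), for 1 in BCP+MSC+Treg (Bnip3, 2.61% of all genes) and for 0 in BCP+MSC+RvE1 (10.6% of all genes). The adjusted count was 0 in each of these 3 comparisons both in edgeR and in DESeq2, and 0% of all genes passed it in edgeR. The median log2 fold change of the 10 genes was 0.35 in BCP+MSC, 0.52 in BCP+MSC+Treg and 0.22 in BCP+MSC+RvE1, whereas the medians over all 30564 genes tested were 0.06, 0.03 and 0.03. The first median was 0.09 without BCP+MSC replicate 3 and 0.19 without BCP replicate 1. The second was 0.34 without BCP replicate 1 and also without BCP+MSC+Treg replicate 2. The third was 0.02 without BCP+MSC+RvE1 replicate 4 and 0.06 without BCP replicate 1. Leaving out BCP+MSC replicate 3, which had the highest Ankrd37 level, left 0 genes under an unadjusted p of 0.05 in BCP+MSC, and leaving out BCP+MSC+RvE1 replicate 4 left 0 in that group.

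The kinds of priming were then compared with MSC alone and with each other. Treg coculture against MSC alone gave 0 genes past either threshold (2.72% of all genes at the unadjusted one), and the log2 fold changes ran from -0.17 to 0.38. RvE1 priming against MSC alone gave 0 as well (3.26% of all genes), with log2 fold changes from -0.63 to 0.29 and a median of -0.11, which was -0.58 with the sex-linked score as a covariate. Between the priming methods 1 gene passed the unadjusted threshold (2.37% of all genes), Egln3, the oxygen sensor that hydroxylates HIF. It was at 40.4, 118, 24.0 and 95.7 CPM with Treg and at 17.3, 43.9, 26.6 and 51.3 CPM with RvE1. The groups overlapped, and the log2 fold change of 1.00 ± 0.46 had an adjusted p of 1. Of the 10 genes 9 were positive between the priming methods, beside 50.1% of all genes. Their median log2 fold change was 0.28, that of all genes 0.00, and theirs was 0.09 without BCP+MSC+Treg replicate 2. The count past the unadjusted threshold fell to 0 without any 1 of BCP+MSC+RvE1 replicates 1 and 3 and BCP+MSC+Treg replicates 2 and 4. None of these 3 comparisons had a gene past the adjusted threshold, among the 10 or among all genes, in edgeR.

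**Figure D2:**
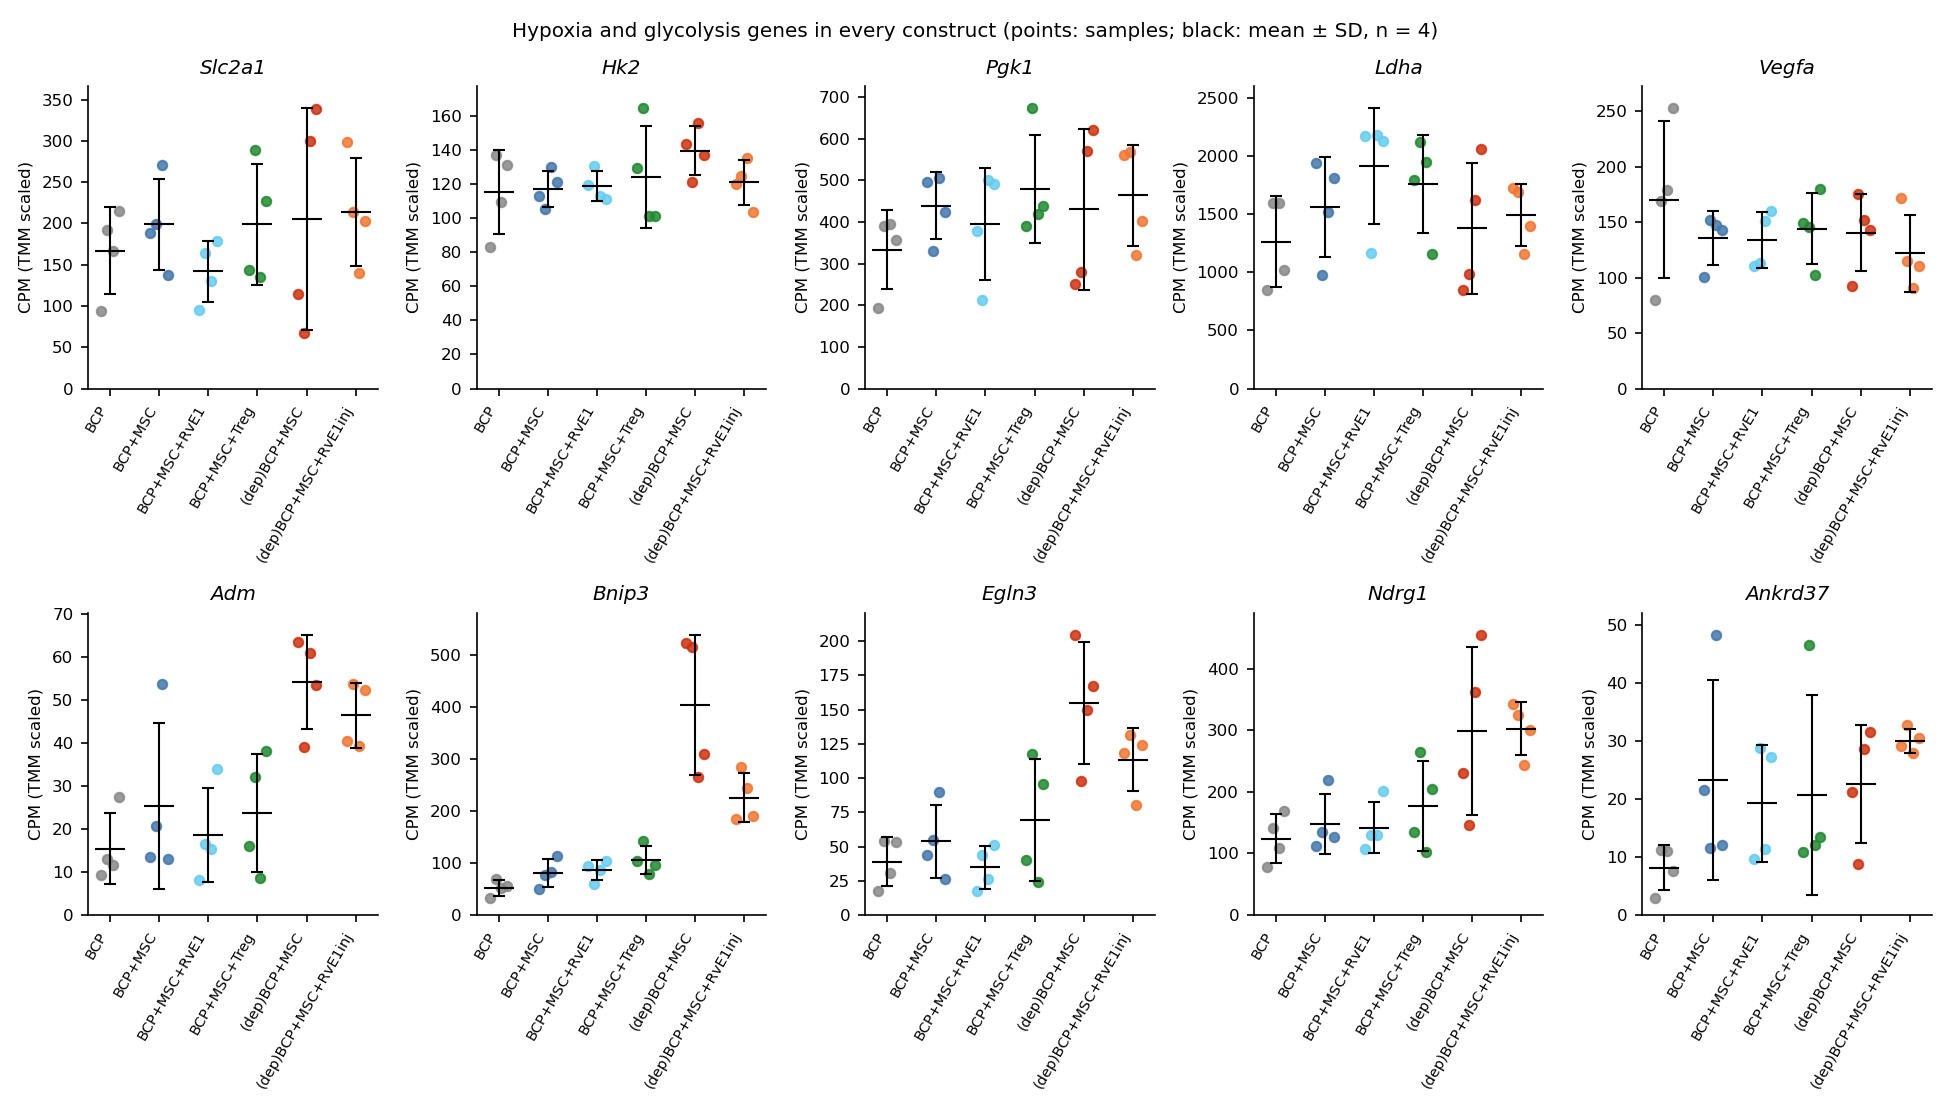
Levels of the 10 genes in CPM scaled by library (y axis, linear from 0) in the 6 groups. Each point is 1 sample and the black marks are the mean ± SD of 4 samples. All 8 samples from toxin-treated mice lie above the other 16 for Bnip3, between 185 and 525 CPM, whereas the groups overlap for Vegfa, Ldha and Hk2.

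The second question was what the genes did in mice given the toxin. Bnip3 rose 5.00-fold in (dep)BCP+MSC and 2.80-fold in (dep)BCP+MSC+RvE1inj against BCP+MSC, and was the only gene of the 10 to pass the adjusted threshold in either. Without RvE1 it was at 525 and 516 CPM in replicates 1 and 2 of (dep)BCP+MSC and at 266 and 311 CPM in the other two samples. With RvE1 it was at 185, 285, 245 and 191 CPM. Bnip3 lies at chr7:138890836-138909519 on the minus strand (GRCm38). All 8 samples lay above all 16 samples from mice without toxin, whose highest value was 142 CPM. The log2 fold change was 2.32 ± 0.29 without RvE1 (adjusted p = 0.000123, edgeR) and 1.48 ± 0.28 with it (adjusted p = 0.0128, edgeR). In both comparisons the exact two-sided permutation p was 0.0286, the smallest that 4 against 4 allows.

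The call in (dep)BCP+MSC held in each of the 10 other settings and without any 1 sample, and was 1.85 (adjusted p = 0.0102, edgeR) without replicates 1 and 2 of (dep)BCP+MSC together, a setting chosen after their values were seen. The call in (dep)BCP+MSC+RvE1inj was lost without BCP+MSC replicate 1 (log2 fold change 1.31, adjusted p = 0.0543) and in a fit of the compared groups alone (1.52, adjusted p = 0.0591), both in edgeR. Bnip3 has an antisense gene and a pseudogene on the opposite strand, and reads were counted without strand. Those genes held 0 and 301 counts over the 24 samples, beside 188922 for Bnip3.

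Egln3, Ndrg1 and Adm were also high in the toxin groups but did not pass the adjusted threshold. Egln3 was at 44.2, 55.0, 90.1 and 26.6 CPM in BCP+MSC, at 205, 97.6, 149.8 and 168 CPM in (dep)BCP+MSC and at 118, 132, 80.3 and 124 CPM in (dep)BCP+MSC+RvE1inj. The (dep)BCP+MSC samples all lay above the BCP+MSC samples, and with RvE1 1 sample fell below the highest of these. The log2 fold changes were 1.52 ± 0.47 (adjusted p = 0.0688, edgeR) and 1.07 ± 0.46 (adjusted p = 0.305, edgeR), and the first passed in DESeq2 (adjusted p = 0.0131) and with another filter on low counts in edgeR (adjusted p = 0.0446).

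Ndrg1, a protein of the stress response that is induced when oxygen is low, was at 112, 135, 219.7 and 126 CPM in BCP+MSC, at 231, 146, 362 and 455 CPM in (dep)BCP+MSC and at 342, 325, 243 and 300.0 CPM in (dep)BCP+MSC+RvE1inj. Here the group with RvE1 lay wholly above BCP+MSC, while replicate 2 of (dep)BCP+MSC lay within its range. The log2 fold changes were 1.01 ± 0.33 (adjusted p = 0.0837, edgeR) and 1.03 ± 0.33 (adjusted p = 0.157, edgeR), and both passed in DESeq2 (adjusted p = 0.0281 and 0.0455). Adm encodes adrenomedullin, a peptide that widens vessels and acts on endothelium through Calcrl and the Ramp proteins. It was at 13.4, 20.8, 53.8 and 13.1 CPM in BCP+MSC, at 63.4, 39.0, 60.9 and 53.5 CPM in (dep)BCP+MSC and at 40.4, 53.7, 39.4 and 52.4 CPM in (dep)BCP+MSC+RvE1inj. A single BCP+MSC sample, replicate 3, reached the range of the toxin groups. The log2 fold changes were 1.10 ± 0.49 (adjusted p = 0.209, edgeR) and 0.88 ± 0.49 (adjusted p = 0.438, edgeR). Without that sample the first was 1.78 (adjusted p = 0.0497, edgeR). Replicate 3 held the highest Adm value of BCP+MSC, so leaving it out must enlarge the difference, and this fit is no support for one.

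The glycolytic genes and Vegfa had group means close to those of BCP+MSC. Slc2a1, the glucose transporter GLUT1, was at 205 CPM ± 134 in (dep)BCP+MSC and 199 CPM ± 55.1 in BCP+MSC (SD, n = 4). Hk2, which phosphorylates glucose on entry, was at 139 CPM ± 14.3 and 117 CPM ± 10.5. Pgk1, which makes ATP in the later part of glycolysis, was at 430.4 CPM ± 193 and 439 CPM ± 80.5. Ldha, which turns pyruvate into lactate, was at 1378 CPM ± 565 and 1565 CPM ± 431, and Vegfa, the main signal for vessel growth, at 141 CPM ± 34.7 and 136 CPM ± 23.9. The log2 fold changes of these 5 genes ran from -0.18 ± 0.31 for Ldha to 0.25 ± 0.18 for Hk2, with adjusted p between 0.465 and 0.985 (edgeR). Ankrd37 differed by -0.05 ± 0.54. Intervals of this width do not show that the levels were alike.

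Counts for Ldha and Pgk1 leave out reads with several alignments, and both genes have processed copies in the genome, so their counts may be low in all samples. The mean of Slc2a1 covered a wide spread: (dep)BCP+MSC replicates 1 and 2 were at 114 and 66.7 CPM and the other two samples at 299.6 and 339 CPM. Pgk1 followed with 249.7 and 279 against 571 and 621 CPM, and Ldha with 849.7 and 982 against 1623 and 2058 CPM. For Bnip3 the order of these pairs was the opposite. These pairs were seen in the data and are not groups of the study.

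In all, 1 of the 10 genes rose and 0 fell past the adjusted threshold in (dep)BCP+MSC, where 3.92% of all genes passed in edgeR, and 4 of the 10 passed the unadjusted threshold, where 20.3% of all genes did. Groups did not overlap for 2 of the 10 genes (Bnip3 and Egln3), beside 9.15% of all genes. Likewise 1 gene rose and 0 fell in (dep)BCP+MSC+RvE1inj (0.720% of all genes), 3 passed the unadjusted threshold (13.7% of all genes), and 2 did not overlap (Bnip3 and Ndrg1, 7.21% of all genes). The median log2 fold change of the 10 genes was 0.15 and 0.24, and that of all genes was -0.04 in each. Without BCP+MSC replicate 3 they were 0.44 and 0.65. The first was 0.23 and 0.32 without (dep)BCP+MSC replicate 1 and 2, and the second was 0.15 and 0.11 without BCP+MSC replicate 2 and 4. With the sex-linked score of each sample as a covariate the median in (dep)BCP+MSC+RvE1inj was -0.24. Both comparisons use the same BCP+MSC samples.

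**Figure D3:**
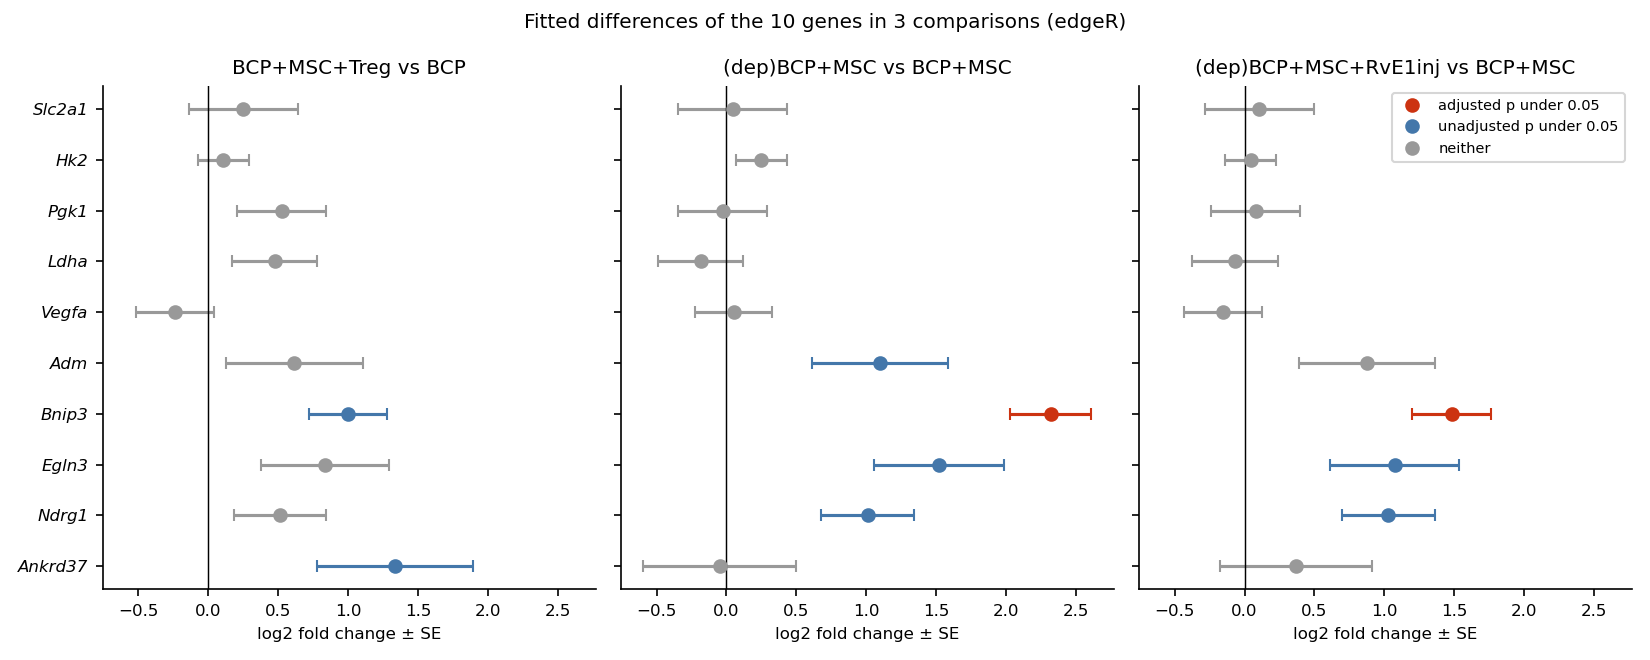
Fitted log2 fold changes (x axis) with their SE for the 10 genes (y axis) in 3 comparisons, coloured by the threshold passed. Bnip3 at 2.32 and 1.48 in the toxin groups is the only gene past an adjusted p of 0.05, and Egln3, Adm and Ndrg1 lie between 0.88 and 1.52 in these groups, while the 4 glycolytic genes and Vegfa lie between -0.18 and 0.25 in both toxin comparisons.

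The third question was how toxin-treated mice given RvE1 injections differed from those without. No vehicle injections are described for (dep)BCP+MSC, so RvE1 and the daily injections themselves cannot be told apart. Against (dep)BCP+MSC no gene passed the adjusted threshold, and 0% of all genes did in edgeR. Bnip3 alone passed the unadjusted one, beside 7.42% of all genes, with a log2 fold change of -0.84 ± 0.28 (adjusted p = 0.668, edgeR; exact permutation p = 0.0571). Its means were 404 CPM ± 135 without and 226 CPM ± 47.3 with RvE1 (SD, n = 4), and the ranges overlapped. Without any 1 sample the difference was -0.99 to -0.68, under an unadjusted p of 0.05 in all 8 such fits (edgeR). Without both replicates 1 and 2 of (dep)BCP+MSC it was -0.34 (adjusted p = 1, edgeR). These held the 2 highest values of the group and were chosen after the values were seen. Leaving them out must shrink the difference, so this fit cannot show that it rests on them. The other 9 genes differed by -0.45 to 0.42. The difference with RvE1 injections in toxin-treated mice minus that with priming of MSC in mice without toxin was -0.93 ± 0.39 for Bnip3. Bnip3 was again the only gene of the 10 under an unadjusted p of 0.05 (4.45% of all genes, 0% adjusted, adjusted p = 1.00 in edgeR). Dose, route, duration and host differ between these ways of giving RvE1.

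Other gene programmes moved with the toxin groups. Of 9 glucocorticoid response genes 4 rose and 0 fell in (dep)BCP+MSC, led by Fkbp5 (log2 fold change 3.43, adjusted p = 5.11e-06, edgeR) with Tsc22d3, Per1 and Zbtb16, and 2 rose in (dep)BCP+MSC+RvE1inj. Of 13 circadian clock genes 8 rose and 1 fell in (dep)BCP+MSC and 3 rose and 1 fell in (dep)BCP+MSC+RvE1inj. The mean log2 CPM of the glucocorticoid response genes was 5.30 to 5.93 in BCP+MSC, 6.72 to 7.95 in (dep)BCP+MSC and 6.47 to 6.95 in (dep)BCP+MSC+RvE1inj. Each toxin group lay wholly above BCP+MSC, and the toxin groups overlapped each other. Within (dep)BCP+MSC this score was highest in replicates 1 and 2, at 7.95 and 7.82, the samples with the most Bnip3 and the least Slc2a1. In the 16 samples without toxin Bnip3 and this score had a Pearson r of -0.02 (permutation p = 0.936) and a Spearman rho of 0.05 (permutation p = 0.849). In the 8 samples with toxin r was 0.91 (exact permutation p = 0.00702, adjusted p = 0.122 over 20 relations) and rho 0.71 (exact permutation p = 0.0576, adjusted p = 0.449), and r was 0.45 without the 2 samples farthest from the median score. After the means of both toxin groups were subtracted it was 0.84. In the same 8 samples r was -0.81 for Ldha, -0.78 for Slc2a1, -0.75 for Pgk1, -0.74 for Ankrd37 and -0.72 for Ndrg1, with adjusted p of 0.122 to 0.129 by exact permutation. These relations were chosen after the values of Bnip3 were seen, and none of the 20 passed the adjusted threshold. The part of these signals in the Bnip3 level was not tested.

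Markers of other cell types moved as well. Of 9 fibroblast markers 5 fell and 0 rose in (dep)BCP+MSC, and their summed level was 5585 to 13733 CPM there against 16066 to 37890.5 CPM in BCP+MSC. With RvE1 1 of them fell, and the sum was 3959 to 15635 CPM. Past the unadjusted threshold 7 were lower in each toxin group, with list medians of -1.54 and, with RvE1, -1.28. DESeq2 called 7 lower in (dep)BCP+MSC and 4 with RvE1. Of 9 keratinocyte markers 3 rose, and their summed level was 41.5 to 506 CPM in (dep)BCP+MSC and 22.5 to 69.5 CPM in BCP+MSC. The highest value was that of (dep)BCP+MSC replicate 1, the next was 122 CPM, and DESeq2 called 1 of the 9 genes. Of 9 neutrophil markers Camp rose in (dep)BCP+MSC (5.29 CPM ± 6.24, SD), but 4 of the 9 were positive and the list median was -0.36. Past the unadjusted threshold 3 of these were higher and 2 lower, and DESeq2 called 3 higher. Of 7 osteoblast markers Ibsp and Dmp1 fell in (dep)BCP+MSC and Ibsp also with RvE1. In (dep)BCP+MSC+RvE1inj all 7 T cell markers were higher past the unadjusted threshold, with a median log2 fold change of 1.65. Of these Cd4 passed the adjusted threshold in edgeR, and DESeq2 called 5. None of the 15 skeletal muscle, 9 endothelial or 10 macrophage markers passed the adjusted threshold in either comparison in edgeR. At an unadjusted p under 0.05, 3 muscle markers were higher and 1 endothelial and 1 macrophage marker lower in (dep)BCP+MSC, and 2 endothelial and 1 macrophage marker were lower in (dep)BCP+MSC+RvE1inj. In DESeq2, 3 muscle markers were higher in the first comparison, 1 endothelial marker was lower in the second, and no macrophage marker passed in either. None of the adipocyte (8) or erythroid (6) markers and none of 9 immediate early genes passed in edgeR in either comparison, whereas 2 immediate early genes fell in (dep)BCP+MSC in DESeq2. No marker in these lists was at 0 in all samples of a group. Their part in the levels of the 10 genes was not tested.

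The rest of the pathway was read from 5 lists. Of 10 components of the HIF pathway 1 rose and 0 fell in (dep)BCP+MSC, namely Hif3a, an alpha subunit that can restrain the others (log2 fold change 2.96 ± 0.79, adjusted p = 0.0350, edgeR). Its level was low, 5.11 CPM ± 3.76 against 0.648 CPM ± 0.528 (SD, n = 4), and the call was lost without any 1 of BCP+MSC replicates 1, 3 and 4 and (dep)BCP+MSC replicates 1 and 2, with adjusted p from 0.0850 to 0.134 in edgeR. Of 22 further HIF targets 2 rose and 1 fell. Ddit4, an inhibitor of mTOR that glucocorticoids induce too, rose by 2.36 ± 0.47, Edn1, the vasoconstrictor endothelin, rose by 1.26 ± 0.28, and Pfkfb4, a regulator of glycolysis, fell by 0.97 on the log2 scale (adjusted p = 0.00607, 0.0105 and 0.0128, edgeR). The median log2 fold change of this list was 0.36, and 13 of its 22 genes were positive. The call of Pfkfb4 was lost without (dep)BCP+MSC replicate 1 or 2, and that of Edn1 without replicate 2, with adjusted p from 0.0538 to 0.0622 in edgeR. No gene of either list passed in edgeR in (dep)BCP+MSC+RvE1inj, where 2 components and 4 further targets were higher and 1 of each lower at an unadjusted p under 0.05. DESeq2 called 4 components and 5 further targets higher and 1 further target lower in (dep)BCP+MSC. With RvE1 it called 0 components and 1 further target, which was lower. The share of all genes that DESeq2 called is not given here.

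Of 15 other glycolytic enzymes and glucose transporters none passed the adjusted threshold in either toxin group in edgeR, and 1 passed the unadjusted one in each, on the lower side. DESeq2 also called 0. The median of this list was -0.19 in (dep)BCP+MSC and -0.02 in (dep)BCP+MSC+RvE1inj. Of 10 glycolysis and glycogen genes typical of muscle, Gys1, the glycogen synthase of muscle, rose by 1.35 ± 0.32 (adjusted p = 0.0179, edgeR), and the call was lost without any 1 of BCP+MSC replicates 1 and 2 and (dep)BCP+MSC replicates 1 and 2, with adjusted p from 0.0543 to 0.0852 in edgeR. Of 17 ligands and receptors for VEGF, adrenomedullin and apelin 2 fell and 0 rose in (dep)BCP+MSC. Aplnr, the apelin receptor of vessels, fell by 3.20 on the log2 scale (adjusted p = 0.00180, edgeR) and Nrp1, a coreceptor for VEGF, fell by 1.03 (adjusted p = 0.0145, edgeR). The Nrp1 call was lost without (dep)BCP+MSC replicate 1 or 2 (adjusted p = 0.0670 and 0.0701, edgeR). Aplnr was also the only gene of the 5 lists that passed in (dep)BCP+MSC+RvE1inj, where it fell by 2.27 on the log2 scale (adjusted p = 0.0379, edgeR), a call lost without any 1 of BCP+MSC replicates 1, 2 and 4 and (dep)BCP+MSC+RvE1inj replicates 2, 3 and 4 (adjusted p from 0.0592 to 0.171, edgeR). Without replicates 1 and 2 of (dep)BCP+MSC the calls of Hif3a, Ddit4, Edn1, Pfkfb4, Gys1, Aplnr and Nrp1 in that group were lost, in a fit with 2 fewer samples. In a fit of the compared groups alone Hif3a, Ddit4, Edn1, Pfkfb4, Gys1 and Nrp1 also lost their calls in (dep)BCP+MSC (adjusted p from 0.0512 to 0.144, edgeR), as did Aplnr in (dep)BCP+MSC+RvE1inj (adjusted p = 0.138, edgeR). The Hif3a call was lost with library size as a covariate (adjusted p = 0.0615, edgeR), and that of Aplnr in (dep)BCP+MSC+RvE1inj without a filter (adjusted p = 0.0556, edgeR).

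**Figure D4:**
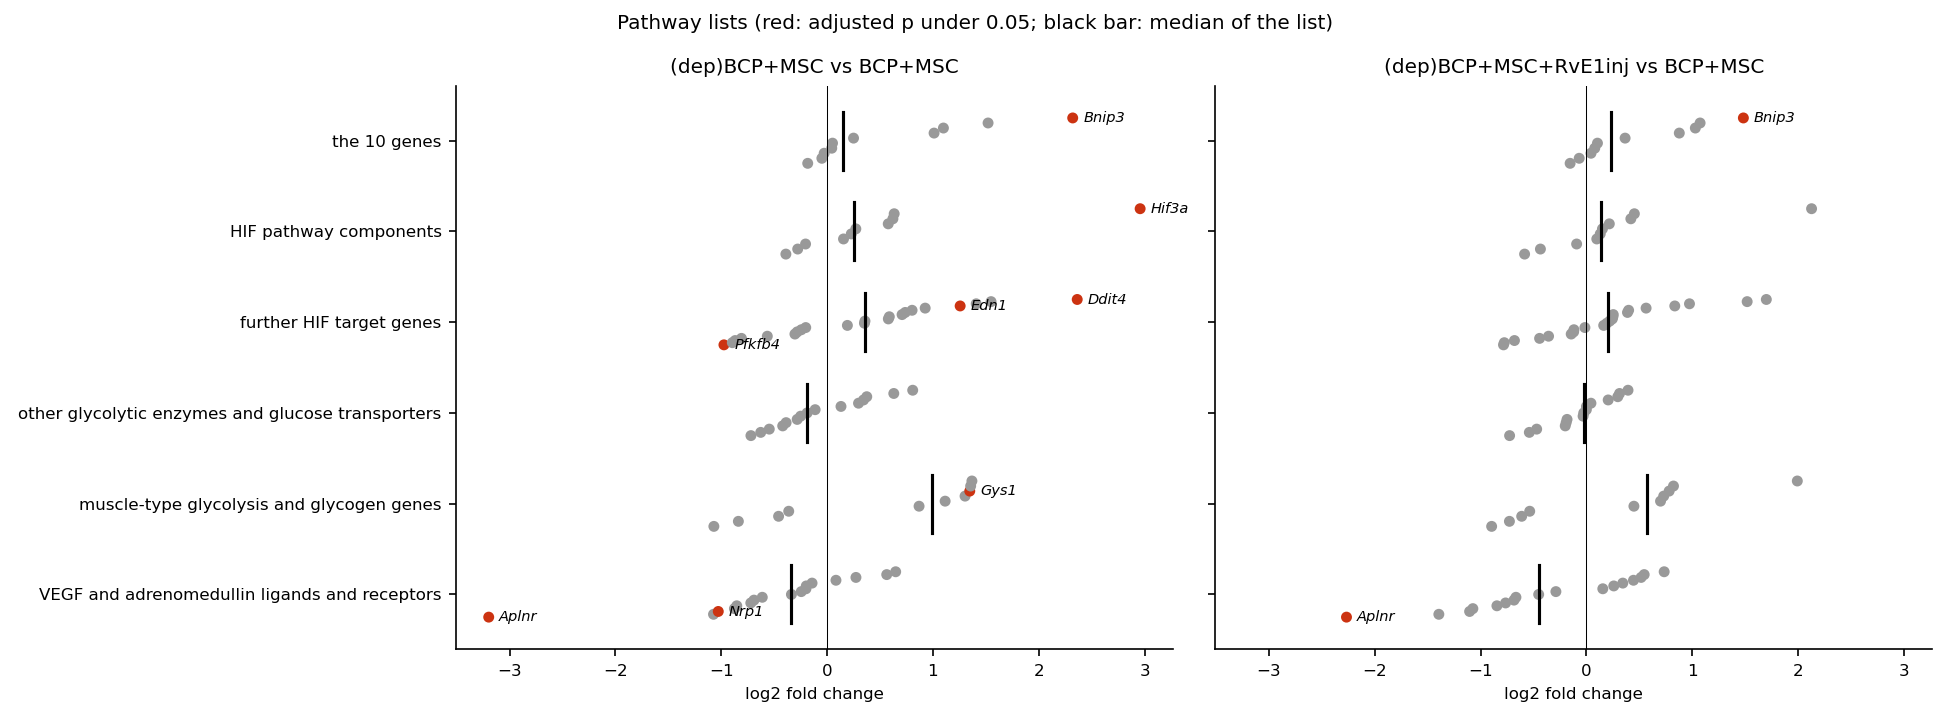
Log2 fold changes (x axis) of the 10 genes and of 5 pathway lists (y axis, 1 point a gene, black bar the median) in the 2 toxin groups against BCP+MSC. Red points passed an adjusted p of 0.05 and are named: Bnip3, Hif3a, Ddit4, Edn1 and Gys1 to the right and Pfkfb4, Nrp1 and Aplnr to the left in (dep)BCP+MSC, and Bnip3 and Aplnr in (dep)BCP+MSC+RvE1inj.

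Differences between animals of 1 group were larger than most differences between groups, so the 10 genes were compared across the 24 samples after the mean of each group was subtracted from log2 CPM. Of 45 pairs 42 had a positive Pearson r, with a median of 0.44, and 14 passed an adjusted p of 0.05 by permutation within groups, all of them positive. Slc2a1 and Ndrg1 were closest, with r = 0.91 and rho = 0.92 (permutation p = 1e-05 for each, the smallest that 100000 permutations give, adjusted p = 0.00045 for r). Adm and Egln3 followed with r = 0.88 (permutation p = 2e-05, adjusted p = 0.00045) and rho = 0.89. Ldha and Pgk1 had r = 0.85 (permutation p = 5e-05, adjusted p = 0.00045) and rho = 0.81. Without the 2 samples farthest from the median of the first gene of each pair, r was 0.88, 0.85 and 0.82. All values of a sample come from 1 library, which can add to such relations. Pairs of other genes were not counted in the same way, so whether these counts are particular to the 10 genes was not tested.

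Slc2a1, Ndrg1, Egln3, Adm and Ankrd37 were thus related to each other across animals, with r from 0.59 to 0.91 over their 10 pairs. Bnip3 was in none of the 14 pairs, and its r with the other 9 genes ran from -0.20 with Slc2a1 to 0.42 with Hk2. Vegfa was in none of them either, with r from 0.20 to 0.52. In the 16 samples without toxin alone, Bnip3 had an r of 0.35 with Slc2a1, 0.61 with Pgk1 and 0.60 with Ndrg1, given as a description. Whether these values differ between mice with and without toxin was not tested.

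**Figure D5:**
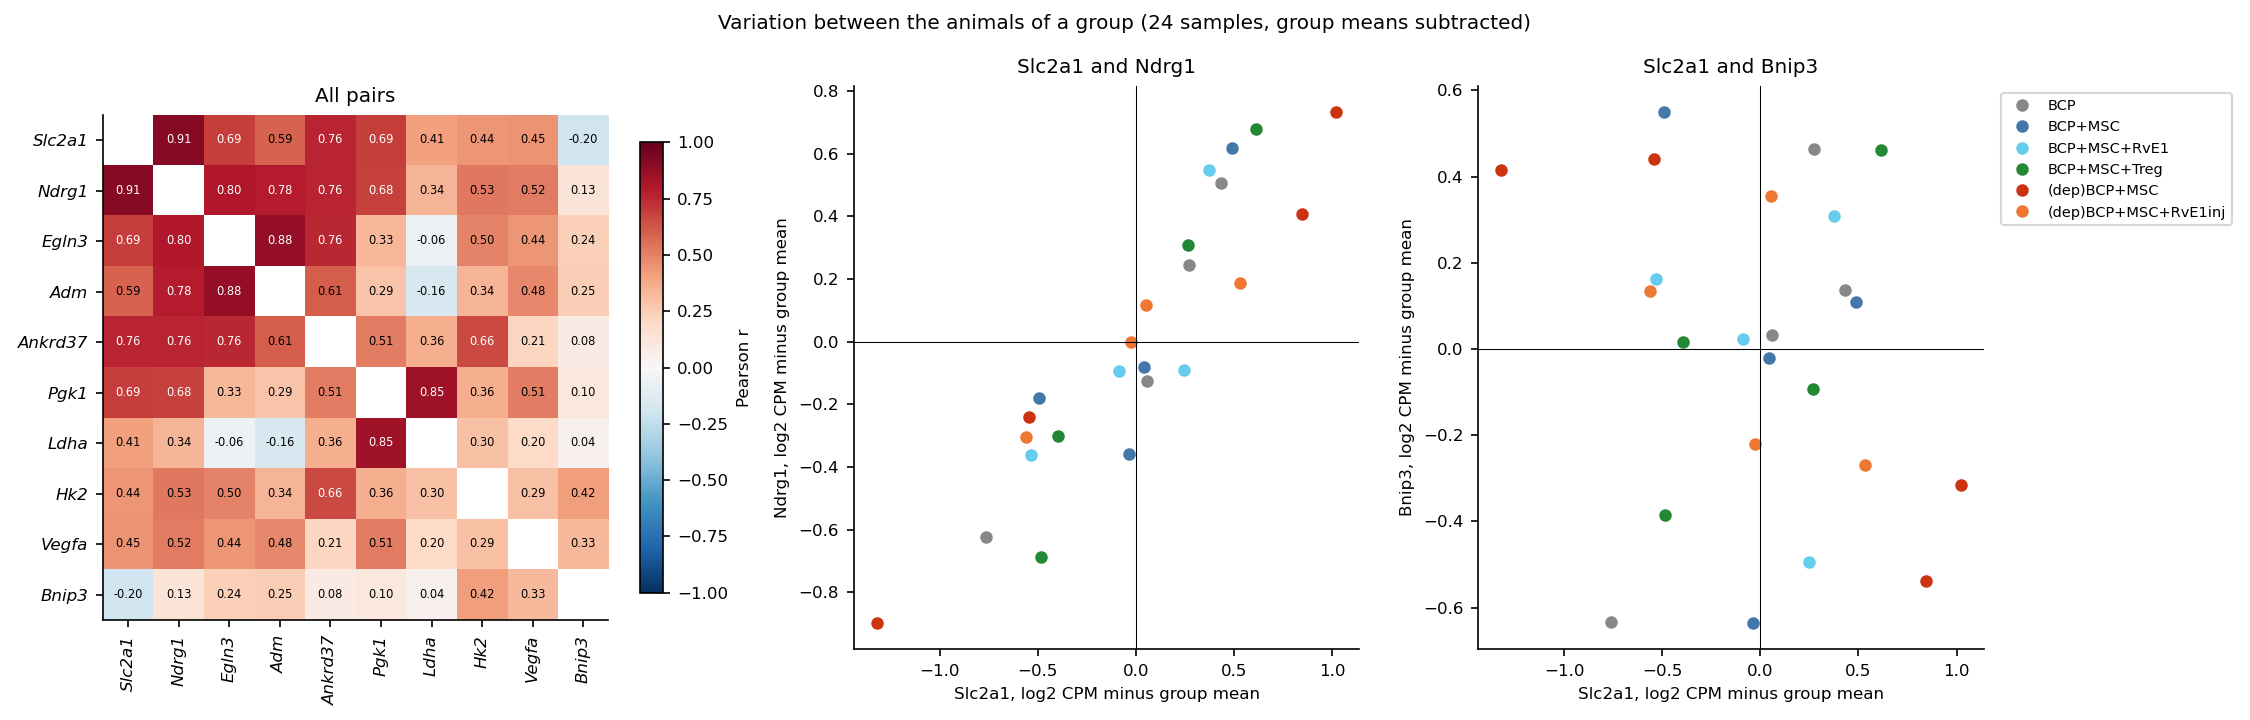
Variation between animals after group means were subtracted, over 24 samples. The left panel gives Pearson r for the 45 pairs, and the other panels plot log2 CPM of Slc2a1 (x axis) against Ndrg1 and Bnip3 (y axes), coloured by group: the points follow a line for Ndrg1 (r = 0.91) and scatter for Bnip3 (r = -0.20).

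Muscle in the constructs was related to 1 of the 10 genes. Over 24 samples Ldha and the mean log2 CPM of the 15 skeletal muscle markers had r = 0.56 (permutation p = 0.00246, adjusted p = 0.0246 over 10 relations) and rho = 0.65 (permutation p = 0.00074, adjusted p = 0.0074). It was 0.48 without BCP+MSC replicate 2 and BCP replicate 4, the samples farthest from the median score, and 0.60 after group means were subtracted. For the other 9 genes r ran from -0.27 for Vegfa to 0.40 for Hk2, and none passed the adjusted threshold by permutation.

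The genes of the whole table whose profile was most like the mean of the 10 genes were Mxi1, Pgf, Mgarp, Gpi1 and Gm11110. They were ranked by Pearson r over 24 samples among 14784 genes with a mean of at least 1 CPM, and r was 0.87, 0.85, 0.85, 0.84 and 0.83. Mxi1, a repressor of the Myc family, spanned 38.7 to 105 CPM, Pgf, the placental growth factor of the VEGF family, 2.62 to 78.7 CPM, and Gpi1, a glycolytic isomerase, 322 to 947 CPM. Mxi1, Pgf and Gpi1 stood in the pathway lists above.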

How the data were processed

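RNA of 24 constructs was sequenced, with 4 animals in each of 6 groups taken from the sample titles. The authors deposited 1 table of raw read counts per gene: reads of stranded paired-end mRNA libraries were aligned with HISAT2 (2.0.5) and counted over exons with featureCounts (1.5.2) on GENCODE M13, per the file headers without strand and without reads that aligned to several places. Depth was 8482701 to 144417743 counts. A floor of 3 counts covers counting error only. In (dep)BCP+MSC 2 columns could not be tied to a replicate number and were used as samples of that group.

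Of 39183 genes with a count, 30564 had at least 10 over all samples and were tested in 1 fit of all samples by edgeR (4.0.16, R 4.3.3, TMM scaling, robust quasi-likelihood test), with Benjamini-Hochberg adjustment over all of them and a threshold of 0.05. Levels are CPM on TMM-scaled libraries, and log2 CPM used a prior count of 2. Single genes were also tested by exact two-sided permutation, and relations across samples by permutation (scipy 1.17.1). A score is the mean log2 CPM of a list. Alternatives were RLE scaling, 2 other filters, a replicate block, DESeq2 (1.42.0), only the compared groups, covariates for muscle, library size and sex-linked genes, and each animal left out. The scripts were tested on simulated data. All 10 genes are named, with up to 4 genes per list past the adjusted threshold and the 5 most alike genes. The genes and lists were chosen with earlier results of these data known. Samples with the same replicate number did not deviate together.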

Additional observations from a re-analysis of the deposited data

Results flagged for a closer look

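In 60 sets of 4 samples, 1 for each gene and group, 3 samples stood apart from the other samples of their group by Dixon's test, which flags about 1 in 20 groups by chance. Ldha was at 1170.3 CPM in BCP+MSC+RvE1 replicate 2, below the other values of 2131 to 2182 CPM. In BCP+MSC+Treg replicate 2, Pgk1 was at 672 CPM, above 390.0 to 437 CPM, and Ankrd37 was at 46.6 CPM, above 10.8 to 13.5 CPM. Among 6 groups the mean log2 CPM of the skeletal muscle markers stood apart in BCP+MSC replicate 2, at 3.75.

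The difference in Bnip3 with RvE1 injections in toxin-treated mice minus that with priming was -0.93 on the log2 scale (unadjusted p = 0.0268, adjusted p = 1.00, edgeR). It was -0.44 (unadjusted p = 0.292, adjusted p = 1, edgeR) without replicates 1 and 2 of (dep)BCP+MSC.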

How the results depend on the processing

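The 24 animals, 4 a group, set the precision more than depth did. Bnip3 kept its adjusted call in (dep)BCP+MSC in every setting run (log2 fold change 1.85 to 2.80). The count of the 10 genes past the adjusted threshold there was 2 with the other expression filter and 3 in DESeq2. With RvE1 injections it was 2 in DESeq2 and 0 with only the compared groups. The shares of all genes called in DESeq2 and in these other settings are not given here, so these counts cannot be set against them. The median log2 fold change was 0.58 in (dep)BCP+MSC without its replicates 1 and 2, and with the sex-linked covariate -0.24 in (dep)BCP+MSC+RvE1inj and -0.58 for BCP+MSC+RvE1 against BCP+MSC.

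Counts past the unadjusted threshold moved as follows. The replicate block gave 2 for RvE1 injection in toxin-treated mice, 2 for injection minus priming and 0 between the priming methods. That last count was also 0 with only the compared groups, the muscle score or library size. DESeq2, only the compared groups and library size each gave 1 for BCP+MSC against BCP. The muscle score gave 1 for BCP+MSC+RvE1 against BCP and 0 for injection minus priming. The sex-linked covariate gave 1 in (dep)BCP+MSC+RvE1inj against BCP+MSC and 1 for BCP+MSC+RvE1 against BCP+MSC. Without replicates 1 and 2 of (dep)BCP+MSC the count was 0 for RvE1 injection and 0 for injection minus priming. The causes were not tested.

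Without 1 animal, the adjusted count ran from 1 to 2 in (dep)BCP+MSC and from 0 to 1 in (dep)BCP+MSC+RvE1inj, where the median ran from 0.11 to 0.65. It ran from 0.13 to 0.44 in (dep)BCP+MSC. Unadjusted counts ran from 0 to 3 (BCP+MSC against BCP), 1 to 4 (BCP+MSC+Treg against BCP), 0 to 3 (BCP+MSC+RvE1 against BCP), 0 to 1 (between priming methods) and 0 to 1 (injection minus priming).

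Signs turned for genes past neither threshold in the fit of all samples. Without RvE1 injections these were Slc2a1 at -1.09 with the replicate block (unadjusted p = 0.0195, adjusted p = 0.130, edgeR) and -0.44 with the sex-linked covariate, Vegfa at -0.034 with the latter, Ankrd37 at 0.035 and Pgk1 at 0.070 with library size, and Ankrd37 at 0.38, Pgk1 at 0.46 and Ldha at 0.25 without replicates 1 and 2. In mice also given RvE1 the sex-linked covariate gave Slc2a1 -0.62, Pgk1 -0.46, Ankrd37 -0.38 and Hk2 -0.093, library size gave Ldha 0.10, and the muscle score gave Hk2 -0.0042. Without 1 animal the ranges in (dep)BCP+MSC were -0.27 to 0.59 (Ankrd37), -0.27 to 0.15 (Pgk1), -0.31 to 0.34 (Slc2a1) and -0.071 to 0.19 (Vegfa), and in (dep)BCP+MSC+RvE1inj -0.014 to 0.10 (Hk2), -0.21 to 0.054 (Ldha), -0.034 to 0.22 (Pgk1) and -0.060 to 0.29 (Slc2a1).

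Replicate numbers did not pair the samples: over 50 pairs with the same number the median correlation of deviations was 0.0045, and 5 of 22 samples correlated best with their own number. The block fit left out the 2 (dep)BCP+MSC columns without a number, and all-gene adjusted calls were 2443 there against 1198 without it.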
